A study of Mus musculus with 6 samples.

Results

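Fresh group 2 innate lymphoid cells (ILC2) of the mesenteric lymph node (MLN) were set against a joint group of thymic ILC2 and cultured MLN ILC2. The joint contrast was the mean of the thymus group and the cultured group, at equal weight, minus fresh MLN. It used all 6 of the 6 libraries of the series, with 2 libraries in each of the 3 groups. Genes were then sorted by the separate comparisons of thymus and of culture with fresh MLN. Both comparisons draw on the same 2 fresh MLN libraries, so they are not independent, and a deviation of those libraries enters both with the same sign.

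The cells of all 3 groups came from mice homozygous for an Id1 transgene under the proximal promoter of lck, bred from FVB/N onto C57BL/J. Id1 blocks E proteins, a family of transcription factors that T cell development needs. Per the labels, T cell development is fully blocked in these mice, and ILC2 made in large numbers by the thymus accumulate in the rest of the body. Cells were sorted as lineage-negative, Thy1-positive and ST2-positive, either from thymus or from MLN, and RNA was taken directly in the fresh groups. Part of the sorted MLN cells was kept for 1 week with 3 cytokines, IL-33, IL-25 and IL-7, each at 10 ng/ml. No library without the transgene was analysed here, and whether the libraries within a group stem from separate mice or cultures is not labelled. The p-values therefore measure only the spread between these libraries, which may be technical.

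ILC2 are lymphocytes without a rearranged antigen receptor that answer the tissue cytokines IL-25 and IL-33 by dividing and by releasing IL-5 and IL-13. IL-7 keeps them alive, and their identity rests on factors such as GATA3 and RORα. A resting lymphocyte stays out of the cell cycle and keeps synthesis of protein, lipid and nucleotide low, while interferons switch on a defence program through a small set of transcription factors in resting and dividing cells alike.

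Library totals lay between 35280692 and 40578264 counts. Across genes, the 2 libraries of a group correlated with r between 0.9918 and 0.9926 on log2 CPM (read counts scaled to library size with TMM factors), thymus with fresh MLN between 0.9516 and 0.955, and culture with fresh MLN between 0.7848 and 0.7912. These r values describe the libraries only, because genes within a library are not independent. Id1 (ENSMUSG00000042745) was at 422 and 426 CPM in thymus and 434 and 469 in fresh MLN, against 1.48 and 1.19 in culture. Counts at Id1 were thus high in the 4 fresh libraries and low in the 2 cultured ones, but whether they hold reads of the transgene besides those of the native gene is not given in the sources used here. Gata3 was at 599 CPM or more in every library, and Il1rl1, which encodes ST2, at 1444 or more.

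Markers of other cells also differed between the groups, although the sort was on lineage-negative cells. The summed level of 17 NK cell and ILC1 markers was 133 to 144 CPM in thymus, 152 to 158 in fresh MLN and 5900 to 8880 in culture, where most of it was Gzmb, the protease granzyme B, while Klrb1c, Klre1, Klra8 and Xcl1 had no counts there. The 18 macrophage and monocyte markers summed to 891 to 925 CPM in thymus, 481 to 522 in fresh MLN and 620 to 715 in culture. Most of the thymus sum was Ccr2, so the sum does not give the direction of the other members. Of the 16 tested, 7 were lower and 1 was higher in thymus than in fresh MLN, and 8 were lower and 5 higher in culture. Over all genes tested, 22% were lower and 25.3% higher in thymus, and 38.1% lower and 39.4% higher in culture. The 11 B cell markers summed to 75.6 to 82.7, 160 to 202 and 110 to 124 CPM in the same order, with Pax5 and Ebf1 at 0 in fresh MLN, and the 11 markers of conventional dendritic cells to 12.4 to 15.3, 35.6 to 41.5 and 40.6 to 45.5. Most of the B cell sum in fresh MLN was Ighm. Of the 8 dendritic cell markers tested, 5 were lower and 1 was higher in thymus than in fresh MLN. In culture 6 were lower and 1 was higher, and Clec9a, Cd209a, Batf3 and Ccl22 had no counts. The dendritic cell sum therefore does not give the direction of most of its members. In bulk RNA, fewer cells of a type and less RNA per cell cannot be told apart.

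Of 16231 genes tested, the joint contrast called 11290 (69.6%) at an adjusted p under 0.05, with 5686 (35%) higher in thymus and culture together and 5604 (34.5%) lower. This mean alone does not place fresh MLN at the edge: 5292 of the called genes (32.6% of all tested) passed in 1 or neither of the separate comparisons. Taken separately, thymus was higher than fresh MLN in 4105 genes (25.3%) and lower in 3572 (22%), and culture was higher in 6403 (39.4%) and lower in 6189 (38.1%). Requiring both comparisons gave 4 classes. There were 2867 genes lowest in fresh MLN (17.7%) and 2547 genes highest in fresh MLN (15.7%). Another 597 genes (3.68%) were higher in thymus and lower in culture than fresh MLN, and 566 (3.49%) were lower in thymus and higher in culture. Counts of list members below are to be read beside these 4 shares. With library totals alone in place of TMM scaling factors the last 2 classes held 944 and 408 genes. At 2-fold or more in both comparisons the classes held 1031 (6.35%), 594 (3.66%), 125 (0.77%) and 122 (0.752%) genes in that order.

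The change in culture was the larger of the 2 in size in 76.2% of the genes lowest in fresh MLN, 88.1% of those highest, 75.7% of those higher in thymus and lower in culture and 70.1% of the reverse class, against 78.1% of all genes tested. The median log2 fold change of the genes lowest in fresh MLN was 0.705 in thymus and 1.35 in culture, that of the genes highest in fresh MLN was -0.535 and -1.27, and the opposite classes had 0.517 and -0.99, then -0.588 and 1.12, against 0 and -0.01 over all genes tested. Culture and thymus compared directly differed in 11793 genes (72.7% of those tested), with 5654 higher in culture (34.8%) and 6139 higher in thymus (37.8%). In this comparison 1804 of the 2547 genes highest in fresh MLN were lower in culture than in thymus and 92 were higher, and 651 of the class were not called. Of the 2867 genes lowest in fresh MLN, 1727 were higher in culture than in thymus, 311 were lower and 829 were not called. When each comparison was given a fresh MLN library of its own, the 4 classes held 2271, 1913, 479 and 466 genes with thymus against replicate 1, and 2433, 2088, 478 and 449 with thymus against replicate 2. Just inside the threshold stood Cebpa, highest in fresh MLN, and Il23r, higher in thymus and lower in culture, and just outside stood Dnttip2 and Slc5a6.

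**Figure D1:**
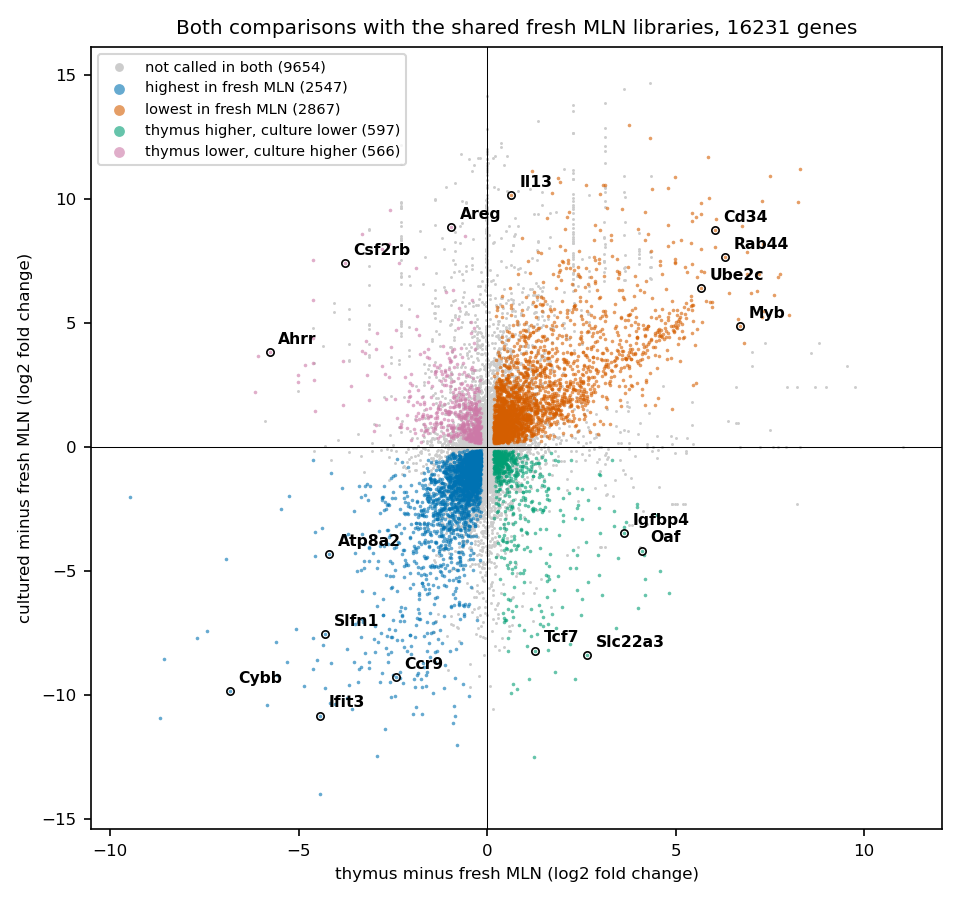
Log2 fold change of each of the 16231 genes tested in thymus (horizontal axis) and in culture (vertical axis), both against the same 2 fresh MLN libraries. Each point is a gene, colours mark the 4 classes, and open circles mark named genes; the culture axis spans a wider range than the thymus axis, and Igfbp4, at 3.64 and -3.48, lies far from both axes in the lower right.

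The interferon response was highest in fresh MLN in every gene of its list. All 35 of 35 interferon-stimulated genes tested were higher in fresh MLN than in thymus and than in culture, against 15.7% of all genes, with a median log2 fold change of -1.59 in thymus and -3.40 in culture. Their summed level was 3513 and 3828 CPM in thymus and 9991 and 10107 in fresh MLN, against 1055 and 1087 in culture, so the groups did not overlap and thymus lay between the others. In the direct comparison 34 of the 35 were lower in culture than in thymus, against 37.8% of all genes.

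Ifit3 (ENSMUSG00000074896), whose product binds foreign RNA complexes in the antiviral response, was at 6.63 and 13.8 CPM in thymus and 213 and 225 in fresh MLN, against 0.151 and 0.0827 in culture. It was 21.5-fold lower in thymus (log2 fold change -4.43 ± 0.21, SE, edgeR quasi-likelihood test with Benjamini-Hochberg adjustment, adjusted p = 2.22e-09) and at -10.85 ± 0.38 in culture (edgeR adjusted p = 1.62e-11). Its near-identical neighbour Ifit3b fell 21.7-fold in thymus and at least 1260-fold in culture, where it had no counts, and reads may be split between these copies. Ifit1bl1, of the same family, went from 77.7 and 82.1 CPM in fresh MLN to 3.2 and 5.77 in thymus and to 0.0302 and 0.0827 in culture.

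Ifi44 was at 223 and 233 CPM in fresh MLN, 12.1-fold above thymus, with 0.121 and 0.165 in culture. Mx1, a dynamin-like GTPase that blocks influenza virus, was at 310 and 335 CPM in fresh MLN and 28.6 and 39.8 in thymus, against 0.724 and 1.27 in culture. Both genes were highest in the 2 fresh MLN libraries and lowest in culture, with no overlap of the groups. Fresh MLN overlapped neither group in 66.4% of all genes tested. All 14 of 14 interferon-inducible GTPases and guanylate-binding proteins tested, which attack vacuoles of intracellular pathogens, had the same direction, with medians of -1.64 in thymus and -2.78 in culture. Iigp1 went from 450 and 454 CPM in fresh MLN to 31.4 and 37.8 in thymus, with 1.21 and 1.87 in culture. Gbp2 was at 314 and 272 CPM in fresh MLN and 75.8 and 81.6 in thymus, against 32.4 and 36 in culture, a smaller range than that of Iigp1. Tgtp1, counted beside its close copy Tgtp2, fell 3.44-fold in thymus and 124-fold in culture.

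The receptors and regulators upstream of these genes changed in more than 1 way. Of 14 interferon receptors and interferon regulatory factors, 4 were highest in fresh MLN, 2 lowest, 1 was higher in thymus and lower in culture, 3 the reverse, and 4 were in no class. Irf1 was higher in fresh MLN by 1.91-fold over thymus and 2.5-fold over culture, and Tyk2, a kinase of the type I interferon receptor, by 1.34-fold and 1.22-fold. Ifngr1, which encodes a chain of the interferon-γ receptor, was higher in thymus (529 and 531 CPM) than in fresh MLN (312 and 319) and lower in culture (206 and 197). Irf8 ran the other way, at 1.85 and 2.31 CPM in thymus and 7.4 and 6.4 in fresh MLN, against 16.3 and 16.2 in culture. Irf4, a factor of activated lymphocytes, was lowest in fresh MLN at 0.668 and 0.637 CPM, against 3.5 and 3.54 in thymus and 155 and 160 in culture.

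Stretches upstream of the start of 6 genes highest in fresh MLN are shown because they carry the letters of the interferon-stimulated response element, searched on both strands as GAAA, any 2 bases and GAAA again in the 250 bases before each start. They come from the RefSeq promoter table on GRCm38.p6 and run 5′ to 3′ along the gene's strand, with each match in capitals (on the reverse strand, TTTC, any 2 bases and TTTC). Ifit3 is at chr19:34583367-34583456 (+), Ifit1bl1 at chr19:34599428-34599490 (-), Gbp2 at chr3:142620564-142620653 (+), Tgtp1 at chr11:48992274-48992363 (-), Cxcl10 at chr5:92349053-92349139 (-) and Cybb at chrX:9469325-9469393 (-).
Ifit3: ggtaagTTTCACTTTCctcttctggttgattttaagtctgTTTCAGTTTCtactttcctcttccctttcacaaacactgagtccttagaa
Ifit1bl1: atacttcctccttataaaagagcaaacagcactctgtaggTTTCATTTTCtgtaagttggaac
Gbp2: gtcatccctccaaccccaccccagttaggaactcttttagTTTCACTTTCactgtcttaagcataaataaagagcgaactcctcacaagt
Tgtp1: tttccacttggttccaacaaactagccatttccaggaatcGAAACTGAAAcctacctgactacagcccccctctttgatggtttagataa
Cxcl10: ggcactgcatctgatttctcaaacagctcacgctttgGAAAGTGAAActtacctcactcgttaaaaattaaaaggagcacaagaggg
Cybb: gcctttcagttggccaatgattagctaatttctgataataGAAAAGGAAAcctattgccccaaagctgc

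The match nearest the start ends 112 bases before it in Ifit3, 13 in Ifit1bl1, 49 in Gbp2, 67 in Tgtp1, 203 in Cxcl10 and 19 in Cybb. Ifit3 holds a second match that ends 146 bases before the start, and Cybb holds 2 more, at 114 and 158 bases, outside the stretch shown. Of the 32851 promoters in the table, 2.98% hold the motif. The table matched 25 of the 35 interferon-stimulated genes and 10703 of the 16231 genes tested, under 80% in both cases, so a comparison of shares between the list and all genes is void. A match is a description of letters, not of a bound site.

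Genes of antigen presentation by MHC class I were also highest in fresh MLN, in 17 of 17 tested, with medians of -0.867 in thymus and -1.25 in culture. H2-Q6 was at 1576 and 1710 CPM in fresh MLN and 487 and 481 in thymus, against 106 and 110 in culture, and the close copy H2-Q7 had the same order. Nlrc5, the transactivator of class I genes, fell 2.73-fold in thymus and 6.73-fold in culture. MHC class II genes did not move as a block: of 13 tested, 6 were highest in fresh MLN, 1 lowest, 1 higher in thymus and lower in culture, and 2 the reverse. H2-Aa (11.3 and 14.8 CPM in fresh MLN) and H2-Eb1 (9.46 and 10.9) were under 3 CPM in the other 4 libraries, while H2-Ab1, which pairs with H2-Aa, was at 5.4 and 5.03 in thymus and 9.05 and 8.9 in fresh MLN, against 55.3 and 66.2 in culture. Of the 6 B cell markers tested, 3 were highest in fresh MLN, 1 lowest and 2 in no class. Ighm was higher in fresh MLN (181 and 142 CPM) than in the other groups (55.7 to 71.7), whereas Cd79b was lowest there (16.7 and 11.1 CPM, against 17.6 and 22.3 in thymus and 47.1 and 50.3 in culture), a call lost without thymus replicate 2 or fresh MLN replicate 2. Fscn1, an actin-bundling protein of mature dendritic cells, was at 14.4 and 17.4 CPM in fresh MLN against 1.68 or less elsewhere. The part of B cells and dendritic cells in the class II result was not tested.

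Ranked by the smaller of the 2 changes, Cybb (ENSMUSG00000015340) led the genes highest in fresh MLN. It encodes the catalytic subunit of the phagocyte NADPH oxidase and was at 0.493 and 0.745 CPM in thymus and 72.3 and 66.8 in fresh MLN, against 0.0603 and 0.0827 in culture. The log2 fold change was -6.81 ± 0.14 in thymus (SE, edgeR adjusted p = 3.04e-12) and -9.85 ± 0.20 in culture (edgeR adjusted p = 1.19e-13). Cybb is on the macrophage list, of which 6 of 16 tested members were highest in fresh MLN and 10 were in no class, and the part of such cells in its change was not tested. The abundant list members differed from Cybb: Ccr2 was at 808 and 826 CPM in thymus and 293 to 371 in fresh MLN and culture, and Cst3 at 60.8 to 77 in the 4 fresh libraries, against 225 and 245 in culture.

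The other genes at the head of this class were Ms4a4c, a membrane protein of the MS4A family (92.3 and 83.6 CPM in fresh MLN, 3.94 and 4.95 in thymus, 0.0905 and 0.11 in culture), Slfn1 and Atp8a2. Slfn1, a Schlafen gene tied to restraint of lymphocyte growth, fell 19.7-fold in thymus and 189-fold in culture. Atp8a2, a phospholipid flippase, was at 67.2 and 52.1 CPM in fresh MLN and at 2.71 to 3.8 in the other 4 libraries, and culture and thymus did not differ by the test (log2 difference -0.14, edgeR adjusted p = 0.552). Of 14 Schlafen and Gimap genes, which keep lymphocytes quiet and alive, 10 were highest in fresh MLN, against 15.7% of all genes. Gimap3 was at 460 and 468 CPM in fresh MLN and 143 to 177 elsewhere. The exception in direction was Gimap4, lower in thymus by 3.39-fold and 1.14-fold higher in culture, a small rise that library totals alone turned to -0.034 and that was not called without fresh MLN replicate 2 or cultured replicate 1.

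Among receptors by which ILC2 sense nerves, Vipr2 was highest in fresh MLN. Vipr2, a receptor for vasoactive intestinal peptide, was at 254 and 302 CPM in fresh MLN and 25.8 and 29.6 in thymus, against 5.64 and 4.3 in culture. Nmur1, the receptor of the activating peptide neuromedin U, had another order: it was 2.38-fold lower in thymus and 2.86-fold higher in culture. Il7r, the IL-7 receptor chain, was higher in fresh MLN by 1.59-fold over thymus and 2.68-fold over culture. Rora was at 809 and 626 CPM in thymus and 639 and 582 in fresh MLN, against 163 and 129 in culture, and thymus and fresh MLN did not differ by the test (edgeR adjusted p = 0.132). Of the 34 genes for ILC2 identity and receptors, 9 were highest in fresh MLN, 3 lowest, 7 higher in thymus and lower in culture, 7 the reverse, and 8 in no class.

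Of 33 genes for homing, adhesion and tissue exit, 4 were highest in fresh MLN and 4 lowest, no more than the 15.7% and 17.7% of all genes, so the list as a whole did not stand apart in these classes and the members named are single genes. Ccr9, the gut-homing receptor for CCL25, was at 335 and 269 CPM in fresh MLN and 58.1 and 54.4 in thymus, against 0.694 and 0.276 in culture. It also stands on the list of 10 markers of plasmacytoid dendritic cells, which summed, Ccr9 included, to 208 to 217 CPM in thymus, 563 to 629 in fresh MLN and 160 to 161 in culture, with Cox6a2 at 0 in fresh MLN, and the part of such cells was not tested. Itgae, the integrin chain that binds E-cadherin, was 3.89-fold lower in thymus and 18.6-fold lower in culture. Icosl, the ligand by which ILC2 signal to their own receptor ICOS, was at 192 and 204 CPM in fresh MLN and 62.5 and 70.7 in thymus, against 19.8 and 20 in culture, whereas Icos itself was lowest in fresh MLN (232 and 229 CPM, against 382 and 398 in thymus and 1557 and 1426 in culture).

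Several secreted or inhibitory proteins shared the fresh MLN peak. Csf1, the macrophage growth factor, was 3.55-fold lower in thymus and 28.8-fold lower in culture, and Cxcl10, a chemokine induced by interferon, 13.1-fold lower in thymus, at 8.48 and 14.7 CPM there against 148 and 154 in fresh MLN and under 0.2 in culture. Cd274, which encodes the checkpoint ligand PD-L1, was at 150 and 152 CPM in fresh MLN and 33.9 and 36.9 in thymus, against 86.5 and 83.8 in culture, so it was 1 of the 92 genes of the class with culture above thymus. Pdcd1lg2, for PD-L2, was at 41.8 and 44.1 CPM in fresh MLN and 7.64 to 10.5 elsewhere. Ltb and Nrp1, also ILC3 markers, fell 1.67-fold and 2.25-fold in thymus and 82.3-fold and 26.7-fold in culture, but of the 9 ILC3 markers tested 3 were highest in fresh MLN, 1 was lowest, 4 were higher in thymus and lower in culture, and 1 was in no class, with a median of 1.18 in thymus. Ccl5, on the NK list, was at 24.6 and 23.7 CPM in fresh MLN, 5.13 and 5.72 in thymus, and under 1 in culture, and 11 of the 17 NK and ILC1 markers were in this class, so the part of NK cells in these results was not tested.

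Of 28 genes for quiescence and growth restraint, 12 were highest in fresh MLN, against 15.7% of all genes, and 1 was lowest, against 17.7%. Another 3, Klf2 and Foxo1 among them, were higher in thymus and lower in culture, 2 the reverse, and 10 in no class. The median joint difference of the list was -0.825 on the log2 scale. Klf4, a factor that holds lymphocytes out of division, was at 13.4 and 11.1 CPM in fresh MLN and 2.39 and 2.34 in thymus, against 0.724 and 0.965 in culture. Cbx7, a Polycomb protein, fell 2.61-fold in thymus and 6.15-fold in culture. Txnip, which limits glucose uptake, fell 1.82-fold in thymus and 6.98-fold in culture, and Bmf, a pro-death BCL2 family member, 4.35-fold and 3.99-fold. Rbl2, which encodes the pocket protein p130 of resting cells, was higher in fresh MLN by 1.42-fold and 1.59-fold, but DESeq2 and the fits without thymus replicate 2 or without fresh MLN replicate 1 did not call both changes, nor did thymus against fresh MLN replicate 2. Among 16 clock genes tested, 8 were highest in fresh MLN, against 15.7% of all genes. Another 3 were higher in thymus and lower in culture, 1 the reverse, and 3 in no class. Nr1d1, a repressor of the clock and 1 of the 8, was at 52.4 and 56.1 CPM in fresh MLN and 30.4 and 33.4 in thymus, against 1.33 and 1.24 in culture. Hlf, a relative of the clock output factor Dbp, was the 1 member lowest in fresh MLN, and the labels give no hour of collection.

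**Figure D2:**
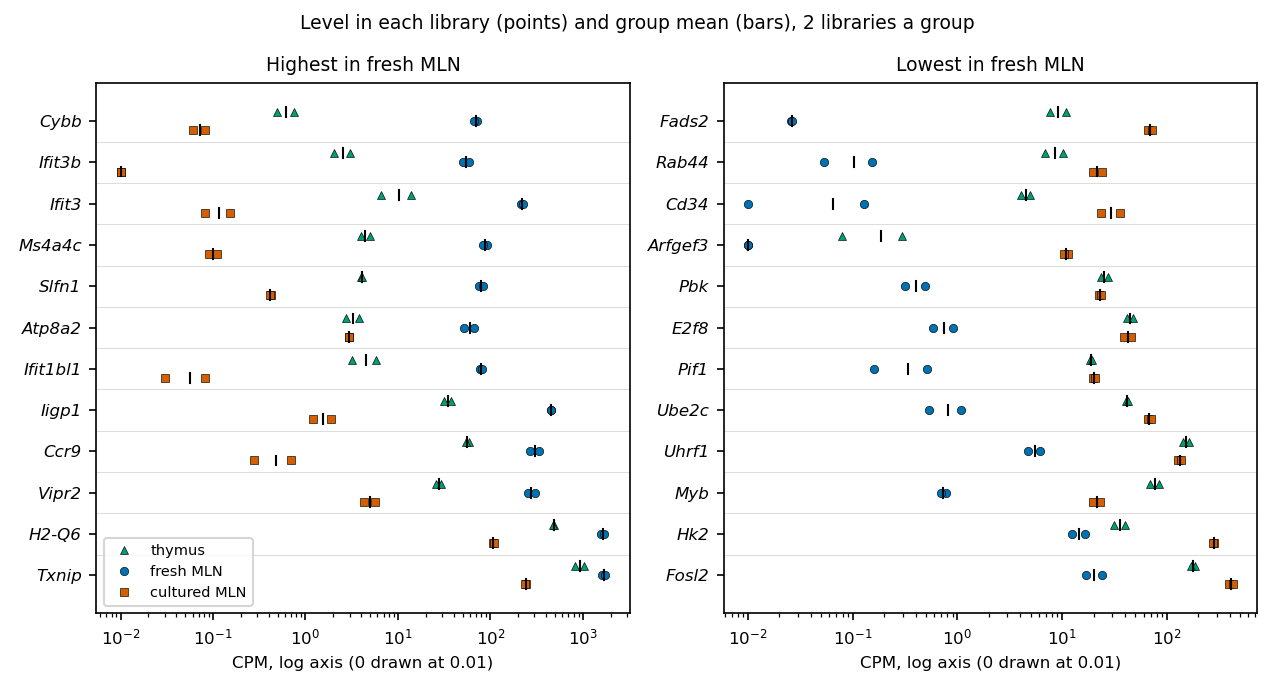
CPM in each library on a log axis for genes highest in fresh MLN (left) and lowest in fresh MLN (right), with thymus as triangles, fresh MLN as circles, cultured MLN as squares and a bar at each group mean. The first 8 genes of each panel head the class by the smaller of the 2 changes; Cybb reaches 72.3 CPM in fresh MLN and stays under 1 in the other 4 libraries, and Ube2c does not pass 1.08 in fresh MLN and is at 40.6 or more elsewhere.

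Genes of cell division were lowest in fresh MLN. All 29 of 29 mitosis genes tested were higher in thymus and in culture than in fresh MLN, against 17.7% of all genes, with median log2 fold changes of 4.10 and 4.38. Their summed level was 2785 and 2669 CPM in thymus and 187 and 181 in fresh MLN, against 2503 and 2716 in culture. The ranges of thymus and culture overlapped. In the direct comparison 11 genes were higher in culture, 7 were higher in thymus and 11 were not called, with a median difference of -0.01. Over all genes tested, 34.8% were higher in culture and 37.8% were higher in thymus. Mitotic genes set fresh MLN apart from both groups but had no shared direction between thymus and culture.

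Ube2c, the conjugating enzyme of the anaphase-promoting complex, was at 40.6 and 42.7 CPM in thymus and 1.08 and 0.531 in fresh MLN, against 66 and 69.9 in culture, with log2 fold changes of 5.68 ± 0.16 and 6.39 ± 0.16 (SE, edgeR adjusted p = 2.24e-11 and 7.09e-13). Pbk, a mitotic kinase, was at 0.488 and 0.319 CPM in fresh MLN and 22.6 to 27.3 elsewhere. Pif1, a DNA helicase, was at 0.514 and 0.159 CPM in fresh MLN and 18.6 to 20.6 elsewhere. The rule that named these genes required fresh MLN to overlap neither group, as it did in 10783 genes (66.4% of those tested). Bub1, of the spindle checkpoint, rose 43.3-fold in thymus and 52-fold in culture, and Cenpf, of the kinetochore, 33.5-fold and 33.3-fold.

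Upstream stretches of Ube2c and E2f8 are shown because each holds TTTGAA, the core of the cell cycle homology region of late cell cycle genes, searched on both strands in the 250 bases before the start, with the match in capitals (its reverse strand reads TTCAAA). Both are from the RefSeq table on GRCm38.p6, Ube2c at chr2:164769860-164769928 (+) and E2f8 at chr7:48881597-48881656 (-).
Ube2c: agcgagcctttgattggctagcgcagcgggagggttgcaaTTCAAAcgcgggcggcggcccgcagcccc
E2f8: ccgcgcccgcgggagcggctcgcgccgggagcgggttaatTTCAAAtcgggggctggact

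The match ends 23 bases before the start in Ube2c and 14 in E2f8. Of the 32851 promoters in the table, 16% hold TTTGAA. Since under 80% of the genes tested were matched, no share of the mitosis genes is set against them.

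DNA replication followed in 30 of 32 genes tested, with medians of 1.86 in thymus and 1.28 in culture. Here 17 genes were higher in thymus than in culture and 1 was lower, against 37.8% and 34.8% of all genes. Uhrf1, which carries DNA methylation through replication, was at 162 and 143 CPM in thymus and 6.22 and 4.75 in fresh MLN, against 129 and 137 in culture. Rrm2, the ribonucleotide reductase subunit, rose 19.2-fold and 29.5-fold, and Cdc6, which licenses origins, 19.4-fold and 18.6-fold. E2f8 was at 48 and 41.8 CPM in thymus and 0.591 and 0.903 in fresh MLN, against 38.8 and 45.6 in culture, and E2f2 rose 38.4-fold and 36.9-fold. Of the 24 genes for G1 cyclins, E2F factors and CDK inhibitors, 14 were lowest in fresh MLN and 3 highest, so this group was less uniform than the mitosis genes by count.

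Most members of 5 lists of synthesis and fuel genes were lowest in fresh MLN, against 17.7% of all genes. Of the 21 glycolysis genes 14 were in this class, of the 24 genes for oxidative phosphorylation 20 (14 with library totals alone), of the 20 for secretion and the unfolded protein response 16, of the 25 for sterol and fatty acid synthesis 13, and of the 20 for amino acid supply 11. The others were mostly in no class, 7 for lipid synthesis and 8 for amino acid supply, while 4 lipid genes were lower in thymus and higher in culture, and 1 lipid gene and 1 glycolysis gene were highest in fresh MLN. Median log2 fold changes in thymus and culture were 0.557 and 2.98 for glycolysis, 0.355 and 0.548 for oxidative phosphorylation, 0.316 and 2.30 for secretion, 0.326 and 2.21 for lipid synthesis, and 0.506 and 1.80 for amino acid supply. In the direct comparison culture lay above thymus in 20 of the 21 glycolysis genes, 19 of the 20 secretion genes, 24 of the 25 lipid genes and 18 of the 20 genes of amino acid supply, against 34.8% of all genes. For oxidative phosphorylation it lay above in 14 of 24, with 4 higher in thymus (37.8% of all genes), 6 not called and a median difference of 0.25.

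Hk2, the first enzyme of glycolysis in activated cells, was at 39.9 and 31.1 CPM in thymus and 16.4 and 12.5 in fresh MLN, against 282 and 278 in culture. Tpi1, triosephosphate isomerase, rose 2.34-fold in thymus and 24.5-fold in culture. Slc2a3, the glucose transporter GLUT3, did not share this order, at 31.4 and 31.2 CPM in thymus and 56.6 and 50.5 in fresh MLN, against 1449 and 1492 in culture. Fdps, of the mevalonate pathway, rose 2.12-fold and 20.6-fold, and Scd2, a fatty acid desaturase, 2.72-fold and 22.3-fold. Psat1 and Phgdh, which make serine, rose 2.9-fold and 2.83-fold in thymus and 9.29-fold and 4.23-fold in culture. Sdf2l1, an endoplasmic reticulum chaperone partner, was at 24.1 and 24.9 CPM in thymus and 9.95 and 9.27 in fresh MLN, against 189 and 189 in culture. Odc1, the first enzyme of polyamine synthesis and a MYC target, rose 2.04-fold and 7.35-fold, while 17 of the 25 genes of its list, the MYC network and ribosome biogenesis, were in no class.

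Transcripts of the mitochondrial genome had a different profile. Of 7 tested, 6 were lowest in fresh MLN, with medians of 0.906 in thymus and 0.749 in culture. Of the same 7, 4 were higher in thymus than in culture, against 37.8% of all genes. mt-Cytb was at 2476 and 2668 CPM in thymus and 1205 and 1179 in fresh MLN, against 2074 and 1984 in culture. Uqcrq, a nuclear gene of the same respiratory complex, was at 40.5 and 44.6, 21.6 and 19.8, and 78.9 and 84 CPM. Among cytosolic ribosomal protein genes 27 of 33 were in no class and 3 were highest in fresh MLN, or 11 with library totals alone.

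Ranked by the smaller change, Fads2 led the genes lowest in fresh MLN. It encodes the Δ6 fatty acid desaturase and was at 10.8 and 7.61 CPM in thymus and 0.0257 and 0.0266 in fresh MLN, against 65.8 and 71.6 in culture. With 2 counts over fresh MLN, the ratio of counts was 355 in thymus (exact 95% interval 97.9 to 2940) and 2630 in culture (729 to 21800). Such intervals cover counting error only. Rab44, a large Rab GTPase of secretory granules, was at 0.154 and 0.0531 CPM in fresh MLN and 10.2 and 6.86 in thymus, against 23.8 and 19.7 in culture. Arfgef3 had no counts in fresh MLN, and its level was at least 4.9-fold higher in thymus, at 0.296 and 0.0798 CPM, and at least 278-fold higher in culture.

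Progenitor genes with this pattern included Cd34, Myb and Hhex. Cd34, a surface protein of progenitors and mast cells, was at 4.9 and 4.07 CPM in thymus and 0.128 and 0 in fresh MLN, against 35.4 and 23.5 in culture. Myb, a factor of progenitors and dividing thymocytes, was at 84.6 and 69.1 CPM in thymus and 0.771 and 0.69 in fresh MLN, against 19.9 and 23 in culture, so thymus was the highest group (culture minus thymus -1.84, edgeR adjusted p = 3.81e-09). Hhex rose 15.5-fold and 37.7-fold. In the list of 27 early thymocyte and progenitor genes, 7 were lowest in fresh MLN, 7 were higher in thymus and lower in culture, 1 was highest in fresh MLN and 12 were in no class.

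Of 23 immediate early and stress genes, 5 were lowest in fresh MLN, a share near the 17.7% of all genes, 6 were lower in thymus and higher in culture, and 10 were in no class. Fosl2, an AP-1 subunit, was at 186 and 171 CPM in thymus and 16.8 and 23.9 in fresh MLN, against 395 and 427 in culture. Egr1, induced by growth signals, rose 2.63-fold in thymus and 5.9-fold in culture, and Egr2 4.83-fold and 6.05-fold. Hsp90aa1, a chaperone, rose 2.14-fold and 3.23-fold.

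Among type 2 effector genes, Calca, which encodes the neuropeptide CGRP, was at 49.7 and 56.9 CPM in thymus and 5.29 and 9.43 in fresh MLN, against 231 and 200 in culture. Lif, a cytokine of the IL-6 family, was at 36.5 and 38.4 CPM in thymus and 23.7 and 13 in fresh MLN, against 599 and 610 in culture. Il13 (ENSMUSG00000020383) was 1.54-fold higher in thymus (12.4 and 15.6 CPM) than in fresh MLN (10.1 and 7.97) and stood at 10278 and 10071 CPM in culture. Il5 was in no class, since thymus (2.59 and 3.22 CPM) and fresh MLN (2.52 and 2.68) did not differ by the test (log2 fold change 0.15 ± 0.17, SE, edgeR adjusted p = 0.481), so its joint difference of 5.90 rests on culture alone. Of the 21 genes in this list, 4 were lowest in fresh MLN and 4 highest, near the shares of all genes, 1 was higher in thymus and lower in culture, 5 the reverse, and 7 were in no class.

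Of 28 inhibitory and TNF family receptors, 4 were lowest in fresh MLN, a share below the 17.7% of all genes, 8 were highest, 3 higher in thymus and lower in culture, and 4 the reverse. Single members of the lowest class had wide ranges. Ctla4, a brake on costimulation, was at 0.334 and 0.0797 CPM in fresh MLN and 4.61 and 3.08 in thymus, against 150 and 151 in culture. Tigit was at 1.03 and 1.54 CPM in fresh MLN and 6.09 and 6.2 in thymus, against 117 and 126 in culture. Gzmb was at 11 and 9.56 CPM in fresh MLN and 50.5 and 42.1 in thymus, against 5752 and 8625 in culture, and Gzma, its partner in killer cells, was at 32.8 to 39.2 in the 4 fresh libraries, against 94.2 and 188 in culture. For Ctla4, Tigit and Gzmb the thymus level was closer to fresh MLN than to culture.

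Genes that moved in opposite directions are partly hidden by the joint contrast, which called 301 of the 597 genes higher in thymus and lower in culture (1.85% of all tested) and 283 of the 566 with the reverse (1.74%). Igfbp4, which binds insulin-like growth factors, shows the pattern: it was at 416 and 425 CPM in thymus and 32.6 and 34.9 in fresh MLN, against 2.69 and 3.34 in culture. Its log2 fold change was 3.64 ± 0.08 in thymus (SE, edgeR adjusted p = 3.23e-12) and -3.48 ± 0.10 in culture (edgeR adjusted p = 3.64e-12), and the joint difference was 0.08 ± 0.08 (edgeR adjusted p = 0.384).

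At the head of the genes higher in thymus and lower in culture was Oaf, at 18.7 and 19.4 CPM in thymus and 0.925 and 1.3 in fresh MLN, against 0.0603 and 0.0551 in culture. Cbfa2t3, a corepressor of blood progenitors, was at 22.1 and 15.4, 1.57 and 1.83, and 0.0603 and 0.0827 CPM in the same order. Btnl9, a butyrophilin-like protein, rose 10.3-fold in thymus and fell 9.1-fold in culture, and Cmah, which makes N-glycolylneuraminic acid, 12.8-fold and 8.11-fold. Slc22a3, an organic cation transporter, was at 103 and 97 CPM in thymus and 14.3 and 17.5 in fresh MLN, against 0.0603 and 0.0276 in culture, a ratio of counts of 368 (exact 95% interval 126 to 1790) between fresh MLN and culture. Strip2 and Sv2b, a synaptic vesicle protein, rose 5.68-fold and 5.65-fold in thymus. Sv2b had 1 count in culture, a ratio of 138 (24.4 to 5480) to fresh MLN.

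Several genes of naive and progenitor lymphocytes had this order. Tcf7 (ENSMUSG00000000782), for the factor TCF-1 of T cell and ILC progenitors, was at 613 and 514 CPM in thymus and 220 and 247 in fresh MLN, against 0.634 and 0.91 in culture. Zbtb16, for PLZF of ILC precursors, was at 44.8 and 47.8 CPM in thymus and 10.3 and 28.7 in fresh MLN and had no counts in culture, at least 448-fold lower; DESeq2 did not call its rise in thymus. Bcl11a was at 6.63 and 4.63 CPM in thymus, 0.283 and 0.106 in fresh MLN and 0 in culture, at least 4.53-fold lower, and Sox4 rose 5.24-fold and fell 3.2-fold. Kit, the stem cell factor receptor, was at 698 and 710 CPM in thymus and 315 and 355 in fresh MLN, against 170 and 187 in culture.

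Of 33 homing genes, 9 were in the same class, against 3.68% of all genes. S1pr1, the exit receptor for sphingosine 1-phosphate, was at 222 and 230 CPM in thymus and 92.4 and 104 in fresh MLN, against 16.8 and 16.1 in culture. P2rx7, an ATP-gated channel, rose 1.97-fold in thymus and fell 169-fold in culture. Klf2, the factor that drives S1pr1 in T cells, was at 248 and 283 CPM in thymus and 165 and 174 in fresh MLN, against 6.25 and 3.72 in culture, but DESeq2 did not call both changes. Foxo1, upstream of Klf2, rose 1.55-fold and fell 1.39-fold.

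Genes around the T cell receptor were in the same class in 10 of 26 tested, with 5 highest in fresh MLN, near the 15.7% of all genes, and 11 in no class. Trbc1 was at 408 and 424 CPM in thymus and 269 and 276 in fresh MLN, against 3.65 and 3.89 in culture, and its close copy Trbc2 had the same order. Trat1, an adaptor of the receptor, was at 65.8 and 60.4, 23 and 27.6, and 0.151 and 0.11 CPM, and Themis, a regulator of thymocyte selection, rose 1.88-fold and fell 1.8-fold. Thy1, a marker of the sort, was at 726 and 736 CPM in thymus and 371 and 300 in fresh MLN, against 107 and 120 in culture. The 14 markers of T cells and thymocytes summed to 781 to 824 CPM in thymus and 595 to 609 in fresh MLN. In culture they summed to 72 to 80.3 CPM. Trbc1 and Trbc2 made up most of the sums of thymus and fresh MLN. Of the 13 tested, 7 were higher and 2 lower in thymus than in fresh MLN, against 25.3% and 22% of all genes. In culture 1 was higher and 8 were lower, against 39.4% and 38.1%. Ptcra had no counts in thymus, and Rag1 and Rag2 had none in culture. The part of such cells in these results was not tested.

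The reverse class, lower in thymus and higher in culture, held the common chain of the IL-3, IL-5 and GM-CSF receptors. Csf2rb was at 0.197 and 0.452 CPM in thymus and 4.37 and 4.51 in fresh MLN, against 828 and 689 in culture, with log2 fold changes of -3.78 ± 0.26 and 7.42 ± 0.13 (SE, edgeR adjusted p = 9.76e-08 and 5.5e-14). Its close relative Csf2rb2 was at 0.296 and 0.213, 1.18 and 1.97, and 491 and 426 CPM. In its list, cytokine signal feedback with STAT5 and JAK genes, 9 of 26 were in this class, against 3.49% of all genes, among them Pim2, a survival kinase, at 17.6 and 20.1 CPM in thymus and 40.2 and 41.6 in fresh MLN, against 238 and 285 in culture.

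Ahrr, the repressor of the aryl hydrocarbon receptor, was at 1.62 and 1.51 CPM in fresh MLN, with 23 and 21 in culture, and had 2 counts in thymus, a ratio of 61.3 (exact 95% interval 16.6 to 512). A4galt, Ctsh, Anpep and Myo5b, a glycosyltransferase, a cathepsin, an aminopeptidase and a myosin, were under 0.4 CPM in thymus, 0.717 to 2.12 in fresh MLN and 10.6 to 34.2 in culture. Ido1 and Dscaml1 also met the naming rule, but their thymus changes rest on 6 counts in fresh MLN against 0 and on 12 against 1. Without either thymus library or without fresh MLN replicate 1 the call of Ido1 was lost, and without thymus replicate 2 or fresh MLN replicate 2 that of Dscaml1.

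Il6, Csf2 and Areg, effector genes of ILC2, were graded from thymus through fresh MLN to culture. Il6 was at 4.07 and 4.87 CPM in thymus and 17.3 and 13.7 in fresh MLN, against 213 and 197 in culture. Csf2, for GM-CSF, was at 4.66 and 5, 13.1 and 12.4, and 119 and 76.8 CPM. Areg, for the repair factor amphiregulin, was at 0.542 and 0.479, 0.977 and 1.01, and 430 and 496 CPM. These 3 genes fell between 1.93-fold and 3.48-fold in thymus and rose between 7.67-fold and 465-fold in culture. Fresh MLN overlapped neither group for them, as for 66.4% of all genes tested. The fall of Areg rests on 22 and 18 counts in thymus against 38 and 38 in fresh MLN. In the test against a 1.5-fold change Areg was in no class.

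Of the 34 genes for ILC2 identity and receptors, 7 had the same order, against 3.49% of all genes, among them Klrg1, Ly6a, Id2 and Il1rl1. Another 7, among them Thy1, Kit, Tcf7 and Zbtb16, had the opposite order. Of the others, 9 were highest in fresh MLN, 3 lowest and 8 in no class. Klrg1 was at 30.8 and 32.3 CPM in thymus and 86.1 and 72.6 in fresh MLN, against 173 and 184 in culture. Ly6a, for Sca-1, was at 389 and 453, 821 and 811, and 4859 and 4958 CPM, and Id2, the E protein inhibitor needed by all ILC, at 453 and 494, 863 and 884, and 1278 and 1236. Il1rl1 fell 1.28-fold in thymus and rose 1.25-fold in culture, and Cxcr6 1.46-fold and 1.28-fold; with library totals alone the culture rise of both was not called. Prdm1, for the effector factor BLIMP-1, was at 26.1 and 23.2 CPM in thymus and 61.6 and 69.6 in fresh MLN, against 122 and 122 in culture. Batf, an AP-1 factor of activated lymphocytes, fell 1.69-fold and rose 3.19-fold, Zeb2 1.57-fold and 10.2-fold, and Bhlhe40 1.55-fold and 1.93-fold.

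Of 24 NF-κB genes, 11 were highest in fresh MLN, against 15.7% of all genes, and 1 was lowest, against 17.7%. In the opposite classes, 1 was higher in thymus and lower in culture (3.68% of all genes) and 3 the reverse (3.49%), with 8 in no class. Relb, a subunit of the alternative pathway, was higher in fresh MLN by 2.05-fold over thymus and 2.5-fold over culture. Traf1 was at 44.6 and 44.1 CPM in thymus and 113 and 135 in fresh MLN, against 301 and 284 in culture, and Bcl3, a nuclear IκB protein, at 12.8 and 13.8, 29.6 and 31.6, and 230 and 243. Tnfrsf9, for the costimulatory receptor 4-1BB, was at 5.72 and 4.79 CPM in thymus and 8.87 and 7.01 in fresh MLN, against 2831 and 2922 in culture.

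**Figure D3:**
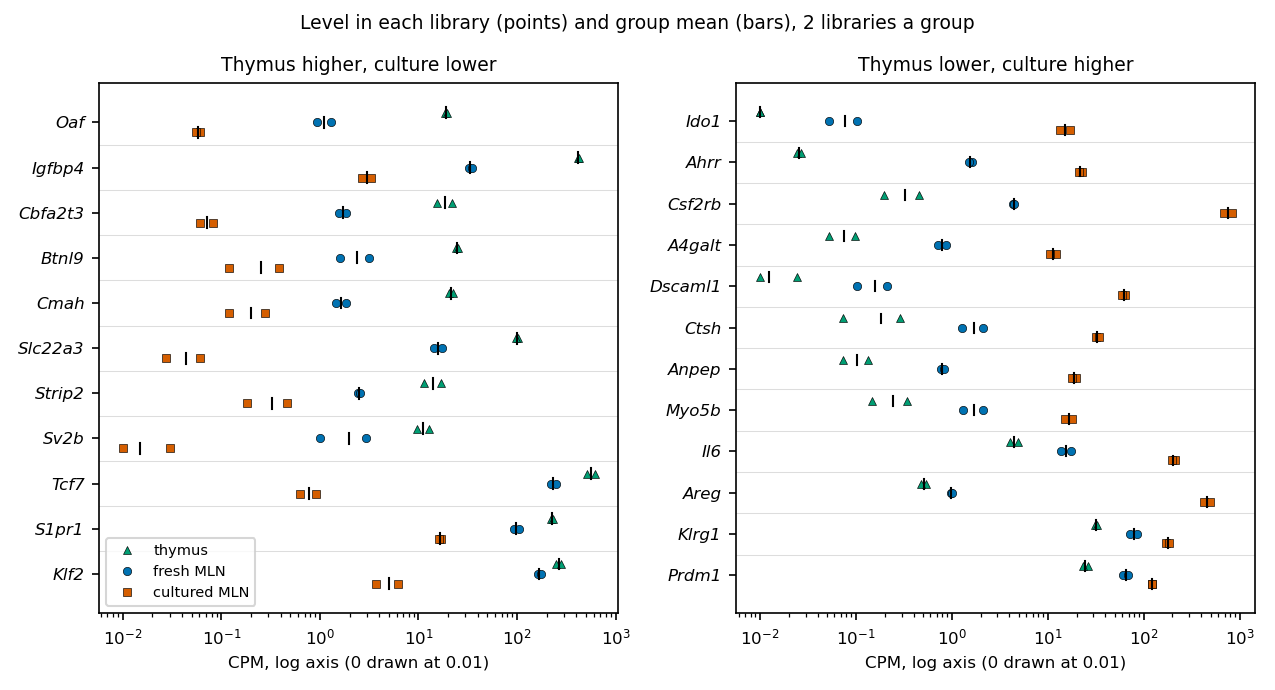
CPM in each library on a log axis, with values of 0 drawn at 0.01, for genes higher in thymus and lower in culture (left) and lower in thymus and higher in culture (right) than fresh MLN; symbols as thymus triangles, fresh MLN circles, cultured squares and a bar at each group mean. The definition of these classes places fresh MLN between the other groups, so its middle position follows from the choice of genes. Igfbp4 was at 32.6 and 34.9 CPM in fresh MLN, 416 and 425 in thymus, and 2.69 and 3.34 in culture.

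**Figure D4:**
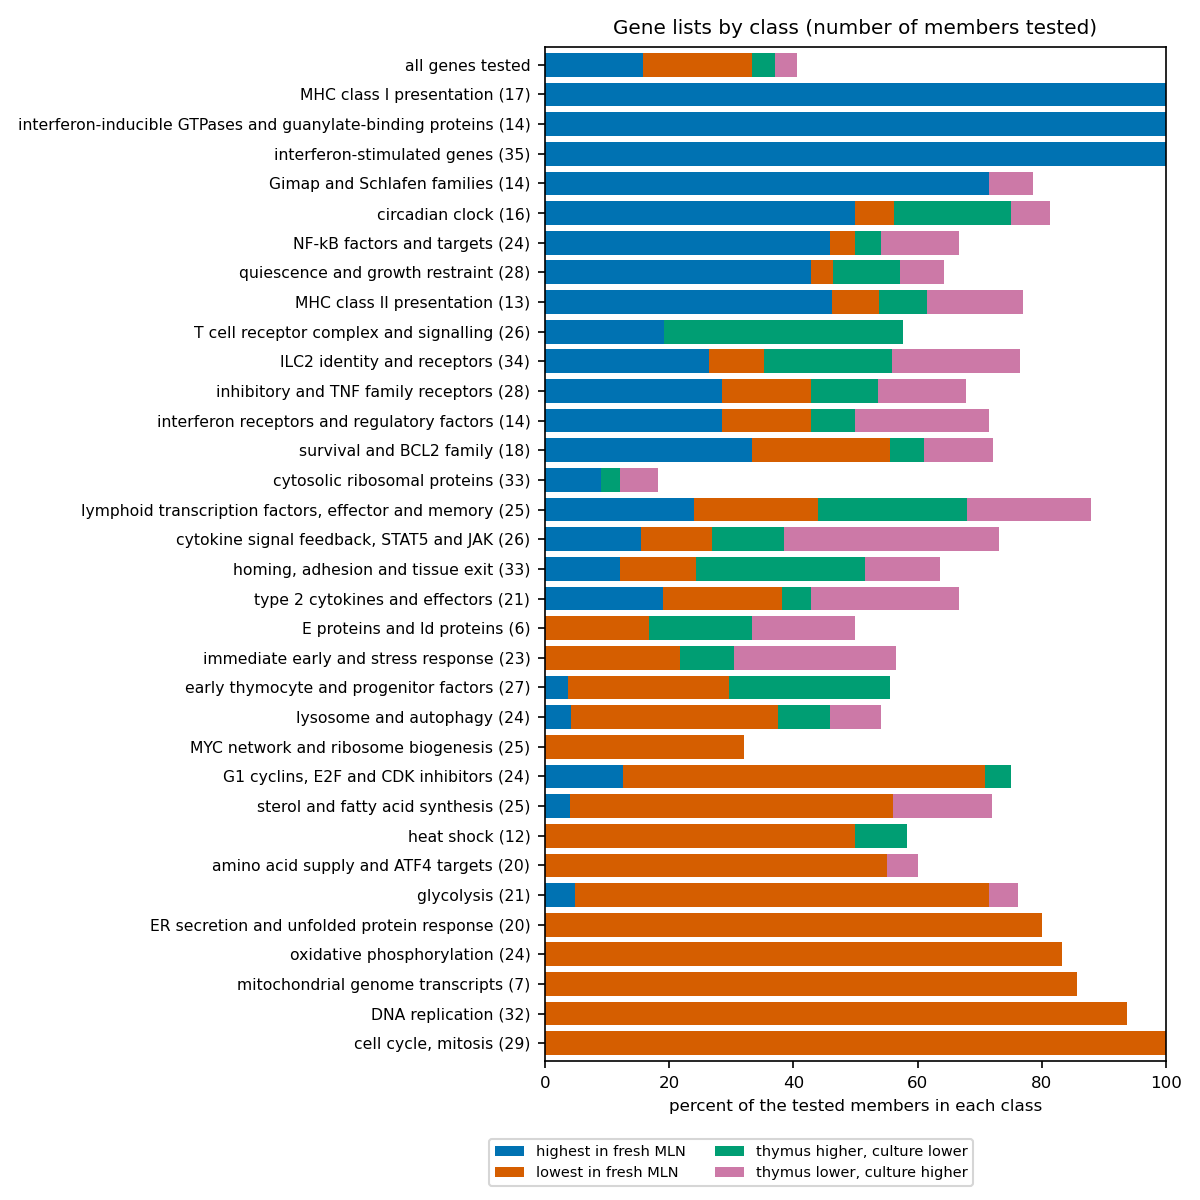
Share of the tested members of each gene list in the 4 classes, in percent, beside the share over all 16231 genes (top bar); the number tested is in brackets and the rest of each bar is in no class. The interferon-stimulated genes (35 of 35), their GTPases (14 of 14) and MHC class I genes (17 of 17) were all highest in fresh MLN, and the mitosis genes (29 of 29) all lowest.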

How the data were processed

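The deposited files hold raw read counts per Ensembl gene, 1 file per library, with no normalization by the authors as far as the whole-number values show, and 0 entries that name no gene. Per the labels' protocols a stranded mRNA kit was used; HTSeq 0.5.3p9 and the builds mm9 and NCBIM37 are named in the submitters' processing notes. The sources used here give no aligner, annotation release or setting for strand, so genes that overlap on opposite strands and near-identical copies are uncertain. GENCODE M21 gave 32919 of 37991 identifiers a symbol and left 5072 without.

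Genes with low counts were removed with filterByExpr, leaving 16231 of 23871 genes with any count. All 6 libraries were fitted together in R 4.3.3 with edgeR 4.0.16, with TMM factors, 1 mean per group, the two-sided quasi-likelihood F test and p-values adjusted by Benjamini-Hochberg over the 16231 genes of each comparison. Residual degrees of freedom were 3, with a prior of 9.54, and the common biological coefficient of variation was 0.066. A gene is called at an adjusted p under 0.05; only such genes are said to rise, fall or be higher or lower. CPM values are on TMM-scaled totals, and an SE comes from the log2 fold change and the F statistic (change over root F). In a library, 3 counts equal 0.0739 to 0.0905 CPM. A fold against 0 counts uses 3 counts over the group. The fit was tested on simulated counts.

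The members, the 33 gene lists and the 11 marker lists were chosen with earlier results of these data known. Named genes were, in each class, the 8 with the largest smaller change among genes with a symbol at 10 CPM or more and fresh MLN overlapping neither group; then up to 3 members of each list per class at 5 CPM or more; the 2 most abundant markers of other cells; and Id1, Il5, Il13, Il7r, Thy1, Rora, Gata3 and Il1rl1. A few genes that the rule names are not reported here. Counts in a class over a list are not independent tests. Alternatives were RLE, upper-quartile or no scaling factors, no filter, 5 CPM in 2 libraries, DESeq2 1.42.0, a replicate block, a test against a 1.5-fold change, each library left out, and a fresh MLN library for each comparison. Changes of named genes under these settings were added after seeing the data. Motifs were searched in the RefSeq promoter table of GRCm38.p6, matched by symbol.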

Additional observations from a re-analysis of the deposited data

How the results depend on the processing

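With library totals alone the median log2 change of all genes in culture was -0.23, and the genes higher in thymus and lower in culture numbered 944 in place of 597, while the reverse class held 408 in place of 566. In the same setting the culture change of Gimap4 was -0.034 (edgeR adjusted p = 0.666). A test against a 1.5-fold change left 1020 genes lowest and 585 highest in fresh MLN, and 117 and 119 in the opposite classes. DESeq2 gave 2524, 2301, 451 and 575 genes in that order and 10566 in the joint contrast. With each library left out in turn the lowest class held 2309 to 2646 genes, the highest 1979 to 2304, the opposite classes 441 to 544 and 425 to 505, and the joint contrast called 9998 to 11020, of which 5029 to 5496 were higher and 4969 to 5524 lower. In those fits the group with 1 library is assumed to vary like the others.

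Replicate numbers are shared by the groups, and the r of same-numbered deviations was 0.098, 0.0135 and 0.0306. With 2 libraries in each group, these r values cannot settle whether the libraries were paired. The fit with a replicate block gave 2975, 2697, 645 and 639 genes in the 4 classes and 11459 in the joint contrast. Of the 149 genes described singly, 142 are in a class, and 131 of these stayed in it in the 14 settings other than the 1.5-fold test and the 5 CPM filter; the 11 exceptions are Il1rl1, Cxcr6, Gimap4, Rbl2, Zbtb16, Klf2, Bach2, Cd79b, Jun, Ido1 and Dscaml1. Genes at under 0.1 CPM rest on a few counts, which limits the size of their fold changes.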

Other observations

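Of 25 transcription factors of effector and memory lymphocytes, 5 were lowest in fresh MLN, 6 highest, 6 higher in thymus and lower in culture, 5 the reverse, and 3 in no class. Over all genes tested the shares of the 4 classes were 17.7%, 15.7%, 3.68% and 3.49% in that order. Aff3, a factor of lymphoid cells, was at 85.6 and 77.4 CPM in thymus and 26.4 and 27 in fresh MLN, against 0.0905 and 0.0827 after culture. Rxra, a nuclear receptor for retinoids, rose 1.94-fold in thymus and fell 4.05-fold in culture. Nr4a3, an orphan nuclear receptor induced by stimulation, rose 2.1-fold and fell 11.3-fold, in contrast to Jun, which fell 1.97-fold in thymus and rose 3.05-fold in culture (not called without fresh MLN replicate 2). Epas1, for the hypoxia factor HIF-2α, was highest in fresh MLN at 839 and 716 CPM, against 425 and 408 in thymus and 193 and 221 after culture. Bach2, a repressor of effector genes, fell 1.41-fold in thymus and 80.8-fold in culture; the thymus change was not called without fresh MLN replicate 2.

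Of 18 survival genes, 4 were lowest in fresh MLN, 6 highest, 1 higher in thymus and lower in culture, and 2 the reverse. The shares of all genes, for this list and those that follow, were 17.7%, 15.7%, 3.68% and 3.49% in that order. Fas, a death receptor, was at 1.31 and 1.2 CPM in thymus and 2.47 and 2.36 in fresh MLN, against 36.7 and 32.7 after culture. Of 24 lysosome and autophagy genes, 8 were lowest in fresh MLN, 1 highest, 2 in each opposite class and 11 in no class. Of 12 heat shock genes, 6 were lowest, 1 was higher in thymus and lower in culture, and 5 were in no class, where 17.7% of all genes were lowest. Among the 6 E protein and Id genes tested 1 was lowest in fresh MLN, 1 was higher in thymus and lower in culture, 1 was the reverse, and 3 were in no class. Mxd3, a MYC antagonist of dividing cells, was at 18.4 and 21.4 CPM in thymus and 0.334 and 0.425 in fresh MLN, against 11.3 and 13.7 after culture.

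The 15 mast cell and basophil markers summed to 821 to 836 CPM in thymus, 341 to 385 in fresh MLN and 987 to 1230 after culture. Kit alone held 698 and 710 CPM of the thymus sum and 315 and 355 of the fresh MLN sum. After culture Kit was lower, at 170 and 187 CPM. Of the 8 tested, 4 were higher and 0 lower in thymus than in fresh MLN, against 25.3% and 22% of all genes. After culture 6 were higher and 2 lower, against 39.4% and 38.1%. Mcpt1, Mcpt2, Mcpt4, Tpsb2 and Tpsab1 had no counts in either fresh group. The 11 ILC3 markers summed to 431 to 470 CPM in thymus, 753 to 774 in fresh MLN and 87.9 to 117 after culture. Il17a was at 0 in all 3 groups. Ltb alone held 635 and 624 CPM of the fresh MLN sum and Nrp1 126 and 116, so this sum does not give the direction of the other ILC3 markers. Granulocyte markers, 12 in number, summed to 5.2 to 6.28, 5.47 to 6.29 and 15.8 to 20.7 CPM. The 14 markers of thymic epithelium and stroma summed to 190 to 197, 149 to 156 and 168 to 170 CPM, and the 7 erythroid markers to 3.01 to 3.59, 5.88 to 6.85 and 1.93 to 2.37 CPM.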
